A study of Mus musculus with 30 samples.

Results

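Hydralazine was compared with no treatment in the descending thoracic aorta of VEDS mice, with an adjustment for how much fibrillar matrix mRNA each library held. VEDS mice (genotype Het in the labels) carry 1 *Col3a1* allele with a glycine substitution in the triple helix of type III collagen and model vascular Ehlers-Danlos syndrome; control mice (WT) carry none. The comparison used 12 of the 30 bulk RNA-seq libraries of the series: 6 from VEDS mice given hydralazine (Hydral) at 32 mg/kg/day in drinking water from birth, and 6 from VEDS mice that remained untreated (Untx). The study's methods describe male mice on a C57BL/6J background and aortas freed of perivascular fat, while the labels state that adventitia was removed with forceps. A further 12 libraries, 6 hydralazine and 6 untreated, came from control mice and were used only to ask where the response differed between genotypes. Harvest was at day 30 or day 60, and the labels do not say which day a library belongs to.

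For that reason the VEDS libraries were split into strata chosen by the level of *Col3a1* itself, as its share of all expected counts in a library. Libraries above 10000 CPM (counts in each 1000000 counts) formed the Col3a1-high stratum and those below it the Col3a1-low stratum. The cut left 3 hydralazine and 3 untreated libraries in each stratum. In the Col3a1-high stratum, untreated libraries 4, 5 and 6 had 13593, 17657 and 16785 CPM and hydralazine libraries 3, 4 and 5 had 15190, 15432 and 14836 CPM. In the Col3a1-low stratum, untreated libraries 1, 2 and 3 had 5262, 5544 and 4889 CPM and hydralazine libraries 1, 2 and 6 had 7508, 5507 and 5704 CPM. The libraries nearest to the cut lay at 13593 CPM above it and 7508 CPM below it. Summed *Col1a1*, *Col1a2* and *Eln* placed all 12 libraries in the same strata. These levels are a description of how the strata were made and were not tested, and a stratum is a range of matrix mRNA, not an age.

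**Figure D1:**
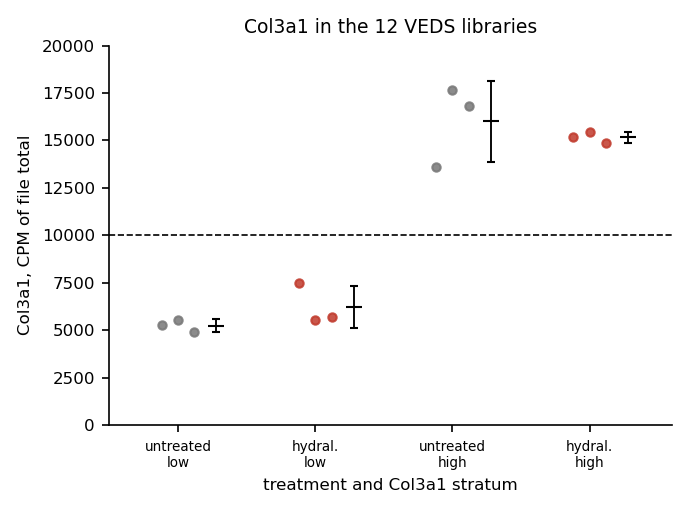
*Col3a1* in the 12 VEDS libraries in CPM of all expected counts (linear axis from 0), by treatment and stratum; points are libraries, the offset bars are mean ± SD over 3 libraries, and the dashed line is the cut at 10000 CPM. No library lies between 7508 and 13593 CPM.

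Hydralazine is a vasodilator used against high blood pressure that relaxes arterial smooth muscle and is also known as an inhibitor of DNA methylation. The wall of the thoracic aorta owes its recoil to elastic fibres, in which elastin is laid on a fibrillin scaffold and crosslinked by lysyl oxidases, and its tensile strength to collagens I, III and V. Transforming growth factor beta (TGF-beta) drives matrix synthesis in smooth muscle cells and fibroblasts and switches on its own inhibitors, among them SMAD7, SKIL and SKI.

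Library totals ran from 5517510 to 7848525 expected counts, and 13478 genes passed the expression filter. Smooth muscle markers summed to between 16989 and 30164 CPM in every library, fibroblast markers were present at 4108 to 4730 CPM, and lymphocyte markers were too low to enter the fit. Other tissue varied more: the 9 brown adipocyte markers summed to 235 to 1348 CPM and the hepatocyte markers to 190 to 22094 CPM. In bulk tissue, fewer cells of a type and less RNA per cell cannot be told apart. Each library was made from a separate aorta per the study's methods; RNA extraction batches are not given per library, so their part was not tested.

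With the stratum in the model, edgeR's quasi-likelihood test called no gene at an adjusted p of 0.05 or less, 0% of those tested, with 0.121 as the smallest adjusted p. At an unadjusted p under 0.05, 1009 genes were counted, of which 594 were higher (4.41% of all genes) and 415 lower (3.08%) with hydralazine. DESeq2 with the same design called 33 genes, 0.311% of the 10601 genes to which it gave an adjusted p, 22 higher and 11 lower. Without the stratum, edgeR again called none, with 604 genes at an unadjusted p under 0.05. The DESeq2 calls then numbered 2, *Ppargc1b* and *Ndufv3*. The DESeq2 count moved by more than 1.5 times whichever of the 12 libraries was left out, from 3 without untreated library 3 to 94 without hydralazine library 1. *Fbln2* was called in all 12 of these fits, and *Angptl2*, *Nuak1* and *Trim47* in 11 of them. *Ppargc1b*, *Ndufv3* and *Wwp2* were called in 10, *Col6a1*, *Itgb5* and *Smad7* in 8, *Skil* in 7 and *Ddr1* in 6. Calls made in 5 were *Hspa2*, *Id1* and *Slc1a4*, and those made in 4 were *Fzd1*, *Idh3b*, *Jund*, *Ski* and *Sost*. *Grk3* and *H4c17* were called in 3, *Acot11*, *G6pdx*, *Rad21*, *Thbs3* and *Vasn* in 2, and *Ldhb* in 1. For part of the genes described below, values or ranges over the libraries are therefore given. Others have only a log2 fold change. The DESeq2 adjusted p is printed for many of the genes where it passed. The edgeR adjusted p of every gene named is over 0.05.

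Among the matrix lists, the elastic fibre had the highest adjusted median. Of 23 measured elastic fibre genes, 19 had a log2 fold change above 0 after adjustment, where 52.7% of all genes did, and their median was 0.17. The list held 8 genes at an unadjusted p under 0.05, all of them higher, and 2 for which, within each stratum taken on its own, every hydralazine library was above every untreated library. Over all genes that separation within both strata was met by 76 in the higher direction, 0.564%, and by 44 in the lower direction, 0.326%.

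*Fbln2* encodes fibulin-2, a glycoprotein that binds elastic fibres and basement membranes. In the Col3a1-high stratum it lay at 259, 232 and 288 CPM untreated and at 372, 367 and 376 CPM with hydralazine. Those of the Col3a1-low stratum lay at 219, 235 and 218 CPM untreated and at 326, 271 and 269 CPM with hydralazine. Every treated library was thus above every untreated library of its own stratum. The adjusted log2 fold change was 0.44 ± 0.07 (SE), with an edgeR adjusted p of 0.145 and a DESeq2 adjusted p of 6.85e-07.

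*Eln*, the gene for elastin, was separated in both strata as well. Untreated libraries had 11196, 12847 and 11950 CPM in the Col3a1-high stratum against 14536, 13314 and 13513 CPM with hydralazine. In the Col3a1-low stratum the values were 3330, 3555 and 2735 CPM untreated and 6492, 4080 and 4458 CPM treated, the highest of them in hydralazine library 1, which also had the most *Col3a1* of its stratum. The log2 fold change was 0.42 ± 0.12 after adjustment (edgeR adjusted p = 0.575), 0.20 ± 0.16 in the Col3a1-high and 0.64 ± 0.16 in the Col3a1-low stratum. The lysyl oxidase gene *Loxl1*, whose enzyme crosslinks elastin, had a log2 fold change of 0.23 ± 0.06. The microfibril gene *Mfap5* had 0.27 ± 0.09.

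Of 23 genes of collagen processing, 22 had a log2 fold change above 0 (median 0.10; 6 at an unadjusted p under 0.05). *P3h1*, a prolyl 3-hydroxylase of the endoplasmic reticulum, lay at 52.6, 62.7 and 55.0 CPM untreated and 69.1, 64.5 and 68.2 CPM treated in the Col3a1-high stratum. Its values in the Col3a1-low stratum were 46.2, 43.6 and 45.0 CPM untreated and 53.3, 52.4 and 50.7 CPM treated, so both strata were separated. *Adamts2*, the procollagen N-proteinase, had a log2 fold change of 0.22 ± 0.07 and the collagen chaperone gene *Fkbp10* one of 0.14 ± 0.04.

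The fibrillar collagen chains are given by stratum, the Col3a1-high stratum first. No count or median is drawn from their list, since it holds *Col3a1*, which set the strata. *Col5a2* had log2 fold changes of 0.01 ± 0.09 and 0.33 ± 0.09, and *Col1a2* had -0.04 ± 0.13 and 0.35 ± 0.13. *Col5a1* had 0.04 ± 0.11 and 0.13 ± 0.11. *Col3a1* itself, as a description with no test, had -0.07 ± 0.12 and 0.28 ± 0.12.

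Among microfibrillar and other matrix genes, 20 of 22 were above 0 (median 0.09; 6 at an unadjusted p under 0.05). *Col6a1*, a chain of the beaded-filament collagen VI, had 973, 1023 and 974 CPM untreated and 1101, 1100 and 1087 CPM treated in the Col3a1-high stratum. It had 707, 673 and 608 CPM untreated and 869, 807 and 874 CPM treated in the Col3a1-low stratum. Both strata were separated, and the log2 fold change of 0.25 ± 0.05 had a DESeq2 adjusted p of 0.0282. *Col16a1* had 0.18 ± 0.06 and *Smoc1*, a matricellular gene, 0.24 ± 0.08. *Thbs3*, a thrombospondin, had 0.26 ± 0.06 and a DESeq2 adjusted p of 0.0487.

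Basement membrane genes were above 0 in 16 of 20 cases with a median of 0.06, and proteoglycan genes in 10 of 12 with a median of 0.04 and none at an unadjusted p under 0.05. Matrix proteases and their inhibitors held members on both sides (15 of 22 above 0, median 0.03). The metalloproteinase genes *Mmp23* and *Mmp17* had log2 fold changes of 0.17 ± 0.05 and 0.22 ± 0.07, whereas the aggrecanase *Adamts4* had -0.43 ± 0.17 after adjustment and -0.72 ± 0.21 in the Col3a1-high stratum. Of 19 integrin and collagen receptor genes, 11 were above 0, and the 2 called by DESeq2 were both higher. *Ddr1*, a tyrosine kinase receptor for collagen, lay at 22.8 to 27.7 CPM in the 6 untreated libraries and at 28.9 to 38.2 CPM in the 6 treated ones, with no overlap. It differed by a log2 fold change of 0.43 ± 0.08 (DESeq2 adjusted p = 0.00591). *Itgb5*, an integrin subunit that binds vitronectin, had 0.20 ± 0.04 (DESeq2 adjusted p = 0.00892).

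**Figure D2:**
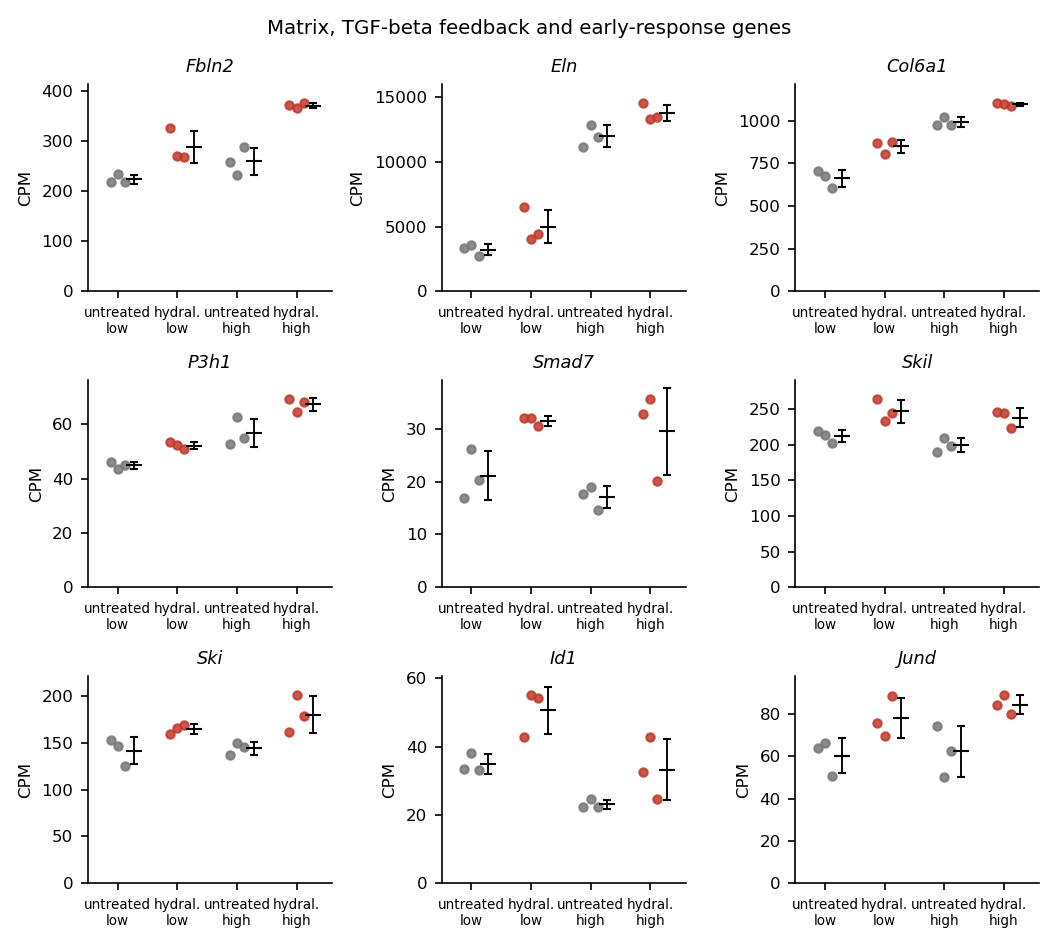
CPM of 9 genes in the 12 VEDS libraries (linear axes from 0) by treatment and Col3a1 stratum; points are libraries and the offset bars are mean ± SD over 3 libraries. In all 9 panels the treated libraries of a stratum lie above its untreated libraries, and for *Eln* and *Col6a1* the strata lie further apart than the treatments.

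Feedback inhibitors and targets of TGF-beta held 3 of the 33 DESeq2 calls, and all 3 were higher with hydralazine. Of 12 genes on that list, 11 were above 0 with a median of 0.18, 5 were higher at an unadjusted p under 0.05 and 4 were separated in both strata. *Smad7*, which blocks the TGF-beta receptor, lay at 17.6, 18.9 and 14.7 CPM untreated and at 32.8, 35.5 and 20.0 CPM treated in the Col3a1-high stratum. Values in the Col3a1-low stratum lay at 16.9, 26.1 and 20.2 CPM untreated and at 32.0, 31.9 and 30.4 CPM treated. Hydralazine library 5 was the lowest of the treated libraries but still above the untreated libraries of its stratum. The log2 fold change was 0.68 ± 0.14 (DESeq2 adjusted p = 0.00244).

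*Skil* and *Ski* encode corepressors that bind SMAD proteins. *Skil* had 189 to 220 CPM in the untreated libraries and 223 to 263 CPM in the treated ones, with no overlap across all 12. The log2 fold change was 0.24 ± 0.05 (DESeq2 adjusted p = 0.00591). *Ski* had 126 to 153 CPM untreated and 159 to 201 CPM treated, also without overlap, and a log2 fold change of 0.27 ± 0.06 (DESeq2 adjusted p = 0.0372). *Id1*, a target of bone morphogenetic protein signalling, had 22.3 to 24.5 CPM untreated and 24.7 to 42.7 CPM treated in the Col3a1-high stratum. The corresponding ranges in the Col3a1-low stratum were 33.2 to 38.2 CPM and 42.8 to 55.0 CPM. The log2 fold change was 0.53 ± 0.12 (DESeq2 adjusted p = 0.00591).

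The ligands, receptors and SMAD transducers of the pathway showed smaller differences. Of 11 genes for ligands and latency proteins, 10 were above 0 with a median of 0.13, and none had an unadjusted p under 0.05. *Tgfb2* was the clearest of them, with log2 fold changes of -0.03 ± 0.13 in the Col3a1-high and 0.53 ± 0.13 in the Col3a1-low stratum. Of 10 receptors and SMADs, 7 were above 0 with a median of 0.03. *Smad2* had 0.16 ± 0.05. *Vasn*, whose product vasorin traps TGF-beta, had 0.35 ± 0.09 and a DESeq2 adjusted p of 0.0458. *Wwp2*, a ubiquitin ligase that acts on SMAD proteins, had 0.28 ± 0.06 and a DESeq2 adjusted p of 0.00646.

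Immediate early genes, which respond to stimuli within minutes, formed the list with the highest adjusted median, 0.28, and 22 of 23 members were above 0. At an unadjusted p under 0.05, 11 were higher and none lower. *Jund*, an AP-1 subunit, had 74.3, 50.1 and 62.8 CPM untreated and 84.5, 88.9 and 80.2 CPM treated in the Col3a1-high stratum. It had 63.9, 66.4 and 50.9 CPM untreated and 76.1, 69.9 and 88.7 CPM treated in the Col3a1-low stratum. The log2 fold change was 0.41 ± 0.10 (DESeq2 adjusted p = 0.0224). *Junb* had 0.55 ± 0.14 and the nuclear receptor *Nr4a3* had 0.69 ± 0.16 at 2.99 to 8.24 CPM.

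Of 16 heat shock genes, 13 were above 0 with a median of 0.18. *Hspa1a*, the inducible HSP70, had a log2 fold change of 0.83 ± 0.25, and hydralazine library 6 stood at 183 CPM where the other treated libraries lay between 60.1 and 88.9 CPM. *Hspa2* had 0.37 ± 0.07 (DESeq2 adjusted p = 0.00732). Endoplasmic reticulum stress genes had a median of 0.06, with *Herpud1* at 0.41 ± 0.12, *Xbp1* at 0.22 ± 0.08 and *Trib3* at 0.53 ± 0.24.

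Cell cycle genes had a median of 0.26, with 20 of 27 above 0 and 7 higher at an unadjusted p under 0.05. The proliferation marker *Mki67* lay at 66.8, 68.8 and 66.8 CPM untreated and 97.6, 73.4 and 67.2 CPM treated in the Col3a1-high stratum. In the Col3a1-low stratum it lay at 7.90, 16.4 and 12.1 CPM untreated and 25.9, 20.4 and 18.5 CPM treated, lower than in any library of the Col3a1-high stratum. The log2 fold change was 0.23 ± 0.21 in the first and 0.83 ± 0.23 in the second. Cyclin B1 (*Ccnb1*) had 0.44 ± 0.35 and 1.94 ± 0.51, from levels under 1 CPM in the untreated libraries of the Col3a1-low stratum.

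Genes of mitochondrial energy supply lay in the lower direction. All 28 measured genes of oxidative phosphorylation had a log2 fold change below 0 (median -0.22), 11 of them at an unadjusted p under 0.05. Of 23 genes of fatty acid oxidation, 22 were below 0 (median -0.29; 8 at an unadjusted p under 0.05). Of 20 lipogenesis genes, 19 were below 0 (median -0.34, 3 at an unadjusted p under 0.05), and of 18 glycolysis genes 14 were (median -0.16, 7 at an unadjusted p under 0.05). In the Col3a1-low stratum the fatty acid oxidation median was -0.45, with 13 genes lower at an unadjusted p under 0.05. In the Col3a1-high stratum it was -0.09, with 1 lower and 1 higher. For oxidative phosphorylation the medians were -0.31 (9 lower) and -0.11 (1 lower) in the same order. Lipogenesis had -0.34 and -0.39, and glycolysis -0.18 and -0.13. Differences of list medians between strata were not tested.

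*Ppargc1b*, a coactivator that drives mitochondrial gene expression, lay at 30.7, 42.0 and 42.7 CPM untreated and 19.4, 26.9 and 20.2 CPM treated in the Col3a1-high stratum. In the Col3a1-low stratum it lay at 29.1, 35.7 and 28.7 CPM untreated and 25.1, 15.8 and 17.4 CPM treated. No treated library reached an untreated one in either stratum, and the log2 fold change was -0.74 ± 0.14 (DESeq2 adjusted p = 8.73e-05). *Ndufv3*, a complex I subunit, had 106 to 120 CPM in the untreated libraries and 85.7 to 102 CPM in the treated ones, without overlap. Its log2 fold change was -0.27 ± 0.05 (DESeq2 adjusted p = 0.0016).

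Other genes in this direction encode enzymes of the same organelle and of sugar metabolism. *Idh3b* of the citric acid cycle had a log2 fold change of -0.34 ± 0.10 (DESeq2 adjusted p = 0.0458). *Acot11*, an acyl-CoA thioesterase, had -0.42 ± 0.12 (DESeq2 adjusted p = 0.0451). *G6pdx*, the entry enzyme of the pentose phosphate pathway, had -0.31 ± 0.08 (DESeq2 adjusted p = 0.0451). The lactate dehydrogenase gene *Ldhb* had -0.30 ± 0.08 (DESeq2 adjusted p = 0.0497), and its relative *Ldha* had -0.30 ± 0.11. *Etfa*, which passes electrons from fatty acid oxidation, had -0.30 ± 0.09, and *Gpam*, the first enzyme of triglyceride synthesis, -0.33 ± 0.12.

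Adipocyte markers lay in the same direction. All 9 brown adipocyte markers had a log2 fold change below 0 (median -0.56; 5 at an unadjusted p under 0.05), as did 11 of 13 white adipocyte markers (median -0.33; 1 at an unadjusted p under 0.05). *Ucp1*, the uncoupling protein of brown fat, lay at 448, 467 and 880 CPM untreated and 333, 523 and 336 CPM treated in the Col3a1-high stratum, where the groups overlapped. In the Col3a1-low stratum it lay at 219, 458 and 327 CPM untreated and 196, 57.5 and 128 CPM treated, without overlap. Its log2 fold change was -0.99 ± 0.31. *Fabp4*, the fatty acid carrier of adipocytes, had -0.57 ± 0.24. *Cox7a1*, a cytochrome oxidase subunit of muscle and brown fat that is on both the oxidative phosphorylation and the brown adipocyte list, had -0.88 ± 0.27.

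The brown adipocyte markers summed to 576 to 836 CPM with hydralazine against 766 to 1348 CPM untreated in the Col3a1-high stratum, and to 235 to 583 CPM against 522 to 835 CPM in the Col3a1-low stratum. The white adipocyte markers summed to 1398 to 2346 CPM in the 6 treated libraries and 1907 to 2367 CPM in the 6 untreated ones. An adipocyte score was made from these white and brown markers, *Ucp1* included. Its members *Cox7a1*, *Ppargc1a* and *Elovl3* are also on the oxidative phosphorylation, fatty acid oxidation and lipogenesis lists. For *Ucp1*, and in part for these lists, a move towards 0 was thus built into the model. With the score added, the median became -0.05 for oxidative phosphorylation, -0.07 for fatty acid oxidation, -0.06 for glycolysis and 0.02 for lipogenesis. In the same model the median was 0.23 for the elastic fibre, 0.21 for TGF-beta inhibitors and targets and 0.24 for immediate early genes, and *Ucp1* had a log2 fold change of -0.36 ± 0.24. Hydralazine library 1 held the most white adipocyte marker mRNA of the treated libraries, and without it the lipogenesis median was -0.58. In the model with the adipocyte score and all 12 libraries, DESeq2 called 7 genes, all higher, of which *Fbln2*, *Nuak1*, *Skil* and the histone gene *H4c17* were among the 33.

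**Figure D3:**
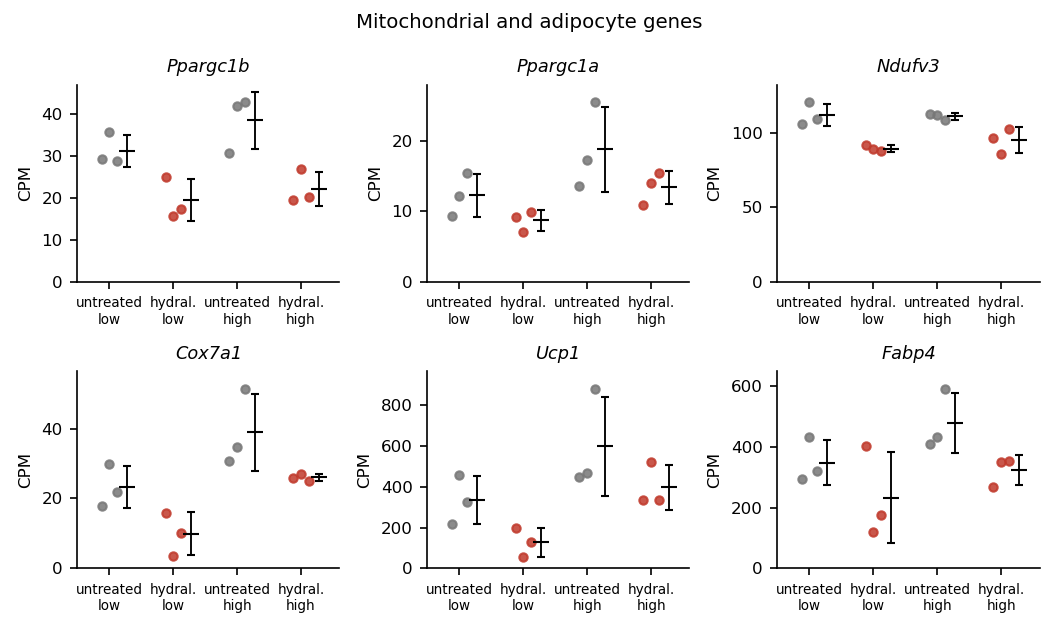
CPM of 6 mitochondrial and adipocyte genes in the 12 VEDS libraries (linear axes from 0) by treatment and Col3a1 stratum; points are libraries and the offset bars are mean ± SD over 3 libraries. Treated libraries lie below untreated ones in both strata for *Ppargc1b*, *Ndufv3* and *Cox7a1*, and the groups overlap in at least 1 stratum for the other 3 genes.

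Lists named for vessel tone and for DNA methylation had medians from -0.02 to 0.08. Of 25 smooth muscle contractile genes, 11 were above and 14 below 0 with a median of -0.02, and 1 had an unadjusted p under 0.05, *Cnn2* at 0.16 ± 0.07. Of 26 vasoactive and nitric oxide genes, 18 were above 0 with a median of 0.08, and 3 were higher and 2 lower at an unadjusted p under 0.05. Among these, *Ramp2*, a partner of the adrenomedullin receptor, had 0.26 ± 0.09, *Ece1*, which makes endothelin, 0.16 ± 0.07, and *Prkg1*, the cGMP-dependent kinase, -0.14 ± 0.06. Ion channel genes were evenly divided at 11 and 11, with the potassium channel *Kcna2* at -0.33 ± 0.12. DNA methylation genes had a median of 0.002, and none of 16 had an unadjusted p under 0.05. The hypoxia list had a median of -0.06, with 19 of 28 genes below 0, and 7 lower and 1 higher at an unadjusted p under 0.05. Its members with the smallest p were the glycolytic enzymes *Eno1* at -0.38 ± 0.14 and *Ldha*. Of 18 genes for steroid receptors and their targets, 12 were above 0 with a median of 0.02, and the estrogen receptor *Esr1* had -0.17 ± 0.07.

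**Figure D4:**
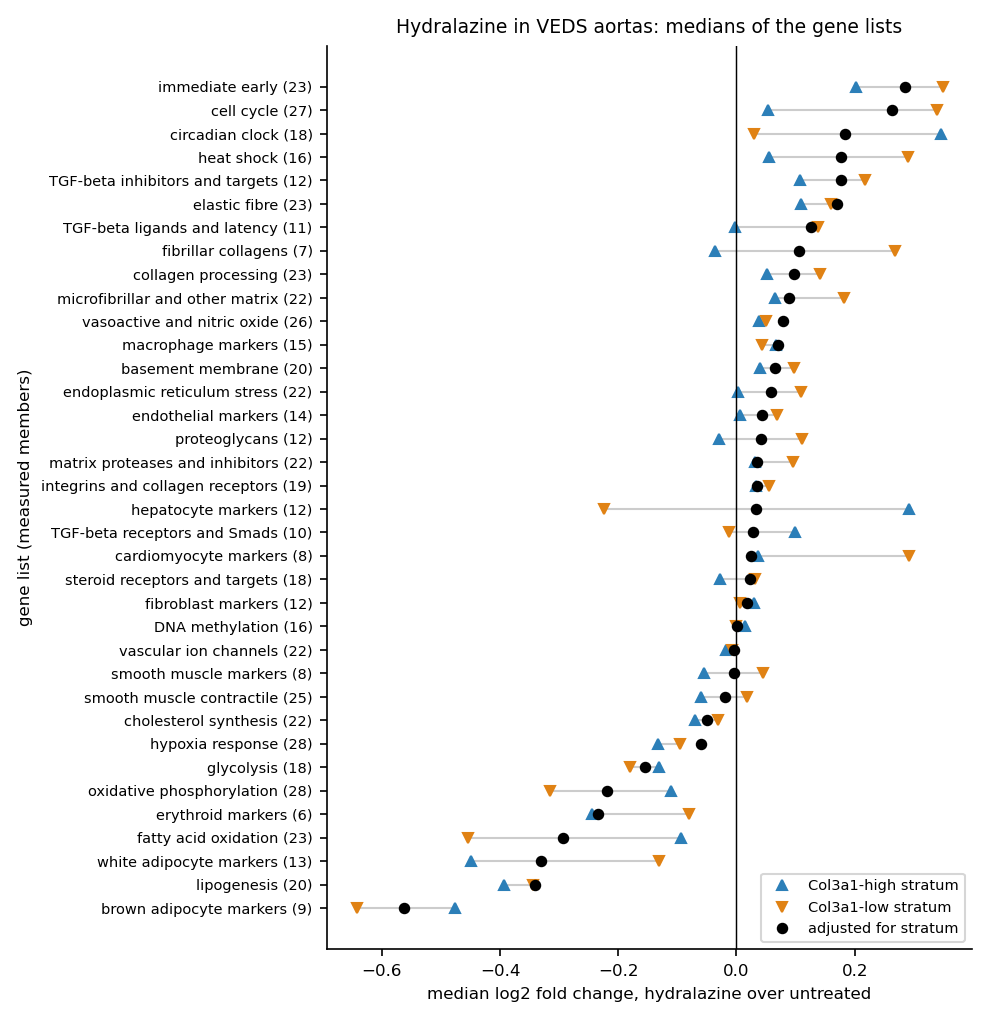
Median log2 fold change of hydralazine over untreated for 36 gene lists with at least 5 measured members (number in brackets), adjusted for stratum (circles) and within the Col3a1-high (upward triangles) and Col3a1-low stratum (downward triangles). Immediate early genes have the highest adjusted median, 0.28, and brown adipocyte markers the lowest, -0.56; the fibrillar collagen list holds *Col3a1*, which set the strata.

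The smallest p of all was that of *Hamp2*, a hepcidin gene, with an edgeR adjusted p of 0.121. It was scarce, at 0.716, 1.33 and 1.56 CPM untreated and 5.24, 10.5 and 7.54 CPM treated in the Col3a1-high stratum, and at 0 to 0.155 CPM untreated and 0.158 to 0.520 CPM treated in the Col3a1-low stratum. *Sult2a1*, a sulfotransferase of liver, had 7.85, 2.44 and 6.04 CPM in the treated libraries of the Col3a1-high stratum, 0.143 CPM in untreated library 4, and no count in the other 8 libraries. Neither *Hamp2* nor *Sult2a1* would have passed the expression filter without those treated Col3a1-high libraries, where both are highest. Their p-values and ranks therefore support nothing. In the Col3a1-high stratum the hepatocyte markers summed to 9717, 16866 and 11722 CPM in the treated and 22094, 4111 and 1669 CPM in the untreated libraries. Their part in the *Hamp2* and *Sult2a1* values was not tested.

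*Trim47*, a ubiquitin ligase gene, had 44.1 to 51.3 CPM untreated and 62.3 to 67.7 CPM treated in the Col3a1-high stratum, and 58.2 to 71.8 CPM against 78.6 to 81.4 CPM in the Col3a1-low stratum. Its log2 fold change was 0.36 ± 0.07 (DESeq2 adjusted p = 0.0016). *Angptl2*, a secreted angiopoietin-like protein, was at 0.27 ± 0.05 (DESeq2 adjusted p = 0.00233), and *Cercam*, a gene related to the collagen galactosyltransferases, at 0.25 ± 0.05. Further DESeq2 calls were the amino acid transporter *Slc1a4* at 0.40 ± 0.08 and the Wnt receptor *Fzd1* at 0.29 ± 0.06. Lower among them were the receptor kinase *Grk3* at -0.38 ± 0.09 and the cohesin subunit *Rad21* at -0.20 ± 0.05. *Rdm1*, a gene linked to DNA repair, had -0.49 ± 0.10 and was separated in both strata.

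Within the Col3a1-high stratum edgeR called no gene. The smallest adjusted p was 0.0849, and 5.94% of genes, 801 in all, had an unadjusted p under 0.05. There were 8 calls by DESeq2, 0.0594% of the genes to which it gave an adjusted p. *Nuak1*, an AMPK-related kinase, had the smallest edgeR p, at 49.9, 55.2 and 57.1 CPM untreated and 92.7, 88.8 and 85.6 CPM treated. Its log2 fold change was 0.72 ± 0.09 there (DESeq2 adjusted p = 4.41e-06) and 0.21 ± 0.09 in the Col3a1-low stratum. *Sost*, which encodes the Wnt antagonist sclerostin, had 168, 196 and 231 CPM untreated, and the treated libraries had a mean of 355 ± 38.7 CPM (SD, n = 3), with the lowest at 328 CPM. Its log2 fold change was 0.84 ± 0.12 (DESeq2 adjusted p = 2.12e-07) in this stratum and 0.14 ± 0.12 in the other, where all 6 libraries lay between 428 and 535 CPM. *Socs2*, a cytokine signalling inhibitor, had 0.70 ± 0.13 and *Bcl6*, a transcriptional repressor, -1.49 ± 0.38, both DESeq2 calls in this stratum. The clock gene *Cry2* had 0.53 ± 0.10, and the circadian list had medians of 0.35 here and 0.03 in the Col3a1-low stratum. Of its 18 measured genes, only 10 were above 0 here and 9 in the other stratum. In the Col3a1-high stratum 2 of them were higher at an unadjusted p under 0.05.

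Within the Col3a1-low stratum edgeR again called no gene (smallest adjusted p 0.644; 623 genes, 4.62%, at an unadjusted p under 0.05). DESeq2 called 18 genes, 17 higher and 1 lower, 0.909% of the 1981 abundant genes to which it gave an adjusted p. *Mfap4*, a microfibril-associated protein, lay at 262, 283 and 292 CPM untreated and 380, 346 and 397 CPM treated (log2 fold change 0.42 ± 0.08, DESeq2 adjusted p = 7.68e-05). *Sparc*, a collagen-binding glycoprotein, lay at 2462, 2660 and 2345 CPM untreated and 4000, 3252 and 3359 CPM treated (0.51 ± 0.09, DESeq2 adjusted p = 7.68e-05). *Col6a1* (0.36 ± 0.07), *Eln* (0.64 ± 0.16), *Adamts2* (0.34 ± 0.09), *Col5a2* (0.33 ± 0.09), *Mfap5* (0.44 ± 0.12) and *Fbln2* (0.36 ± 0.09) were also among the 18. So were *Htra1*, a secreted protease, at 0.25 ± 0.06, *Sfrp2*, a Wnt modulator, at 0.56 ± 0.15, and *Fstl1* at 0.34 ± 0.09. In this stratum *Col3a1* had a mean of 5231 CPM untreated and 6239 CPM treated, a difference the cut does not remove. Whether these matrix genes differed beyond it was not tested within the stratum. Without hydralazine library 1, adjusted log2 fold changes fell from 0.42 to 0.30 (*Eln*) and from 0.27 to 0.19 (*Mfap5*). Those of *Sparc* fell from 0.26 to 0.19, of *Col5a2* from 0.17 to 0.13 and of *Fstl1* from 0.15 to 0.10. For *Fbln2*, *Col6a1*, *Adamts2*, *Mfap4*, *Htra1* and *Sfrp2* the lowest value came without another library. The lower gene of the 18 was *Acadvl*, of fatty acid oxidation, at -0.64 ± 0.18.

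In the Col3a1-high stratum several of these genes were flat, with log2 fold changes of -0.08 ± 0.08 for *Mfap4*, 0.02 ± 0.09 for *Sparc*, -0.02 ± 0.06 for *Htra1* and -0.03 ± 0.09 for *Fstl1*. The test of the difference between strata called no gene with edgeR (3.52% of genes, 475, had an unadjusted p under 0.05), whereas by DESeq2 *Mfap4* was the 1 gene called. Its difference, high minus low, was -0.51 ± 0.11. For *Bpifa1*, a secreted airway and glandular protein, the difference had the smallest edgeR p at levels of 0 to 3.44 CPM. Across all 13478 genes the log2 fold changes of the strata, which share no library but share the fit, correlated with a Pearson r of 0.08.

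**Figure D5:**
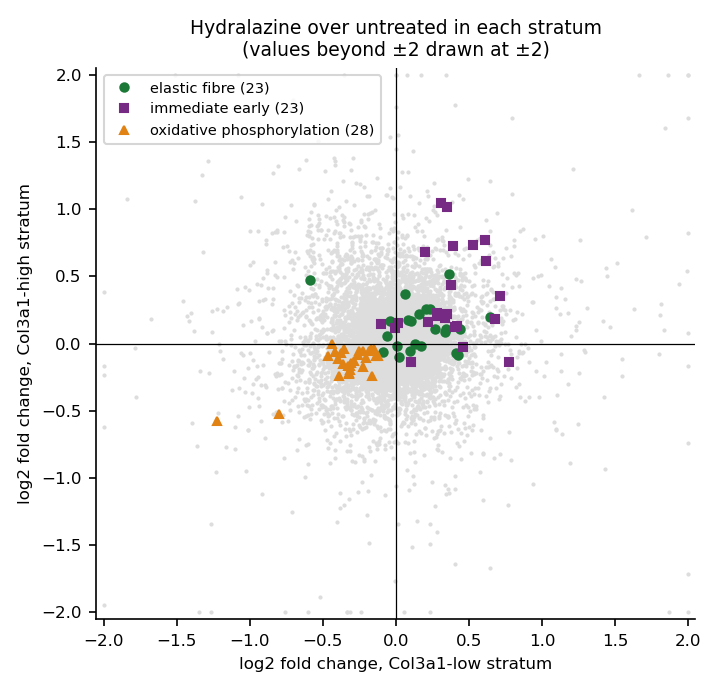
Log2 fold change of hydralazine over untreated in the Col3a1-low (horizontal) against the Col3a1-high stratum (vertical) for all genes (grey) and for the elastic fibre, immediate early and oxidative phosphorylation lists (coloured; number of genes in brackets). All 28 oxidative phosphorylation genes lie below 0 in both strata, while 15 of the 23 elastic fibre genes lie above 0 in the Col3a1-high and 19 in the Col3a1-low stratum.

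Where the response differed between VEDS and control aortas was tested as the interaction of genotype and treatment over 24 libraries. The control libraries fell 3 and 3 into each stratum by the same cut. EdgeR called none of 13739 genes, with 0.673 as the smallest adjusted p and 695 genes (5.06%) at an unadjusted p under 0.05. By DESeq2 none was called either, with 583 at an unadjusted p under 0.05. *Fbln2* had a log2 fold change of 0.34 in control against 0.44 in VEDS aortas, with a difference of 0.10 ± 0.14. *Eln* had 0.65 in control, with a difference of -0.24 ± 0.23, and *Smad7* 0.46, with a difference of 0.21 ± 0.21. The control medians of the matrix lists were likewise above 0, at 0.19 for the elastic fibre and 0.16 for collagen processing.

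Medians of the oxidative phosphorylation, fatty acid oxidation, glycolysis, lipogenesis and adipocyte lists had the opposite sign in control aortas. The cholesterol synthesis median was below 0 in both, at -0.05 in VEDS and -0.35 in control. The control medians were 0.08 for oxidative phosphorylation, 0.08 for fatty acid oxidation and 0.32 for brown adipocyte markers. *Ppargc1b* had 0.22 in control, a difference of -0.96 ± 0.28 (edgeR adjusted p = 0.782). The differences were -0.47 ± 0.12 for *Ldhb*, -0.30 ± 0.08 for the pyruvate kinase *Pkm* and -1.52 ± 0.55 for *Ucp1*. Control *Ucp1* was uneven in the Col3a1-low stratum. As CPM of the file total it was 190, 196 and 25.2 untreated and 264, 80.4 and 228 with hydralazine. The adipocyte score was not added to the genotype fit. Immediate early genes had a control median of 0.05, and the difference for *Jund* was 0.35 ± 0.18. The gene with the smallest p was *Spg7*, a mitochondrial protease, with 0.30 in control and a difference of -0.38 ± 0.09. None of these differences passed the correction over all genes.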

How the data were processed

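RNA from descending thoracic aorta was sequenced as paired 150-base reads from a stranded total RNA kit. The authors aligned reads to mm39 with STAR, quantified genes with RSEM in its stranded setting (submitters' processing notes, which also name CASAVA 1.8.4) and deposited expected counts per gene for each library. Expected counts apportion reads among similar genes, so values of near-identical copies (histone and *Sult2a1*-type families) are uncertain. Of the deposited expected counts, 97.6% were whole within 1e-06, and all were rounded. TPM and FPKM columns were not used.

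Groups came from the labels. The labels give no harvest day or extraction batch per library. The 2-level stratum was set by *Col3a1* at 10000 CPM of the file total, a measured value that stands in for harvest day without naming it, so *Col3a1* and the levels of the strata were not tested. Members, gene lists and named genes were chosen with earlier results of these data known. Genes were filtered on the 4 stratum-by-treatment groups (13478 of 26253 listed genes kept, and 13739 with the 24 libraries of the genotype fit). They were scaled by TMM (factors 0.981 to 1.05) and fitted with edgeR 4.0.16 (quasi-likelihood F-test, default prior count) in R 4.3.3. Adjustment was by Benjamini-Hochberg with a threshold of 0.05. A prior count of 2 was used only in the log CPM behind the marker scores and the surrogate variable. CPM of genes other than the stratum values are TMM-scaled. SE is the log2 fold change divided by the square root of its F statistic. Errors in the text are SE unless SD is named. Totals of 5517510 to 7848525 counts limit what can be said of scarce genes.

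Alternatives were DESeq2 1.42.0, limma-voom 3.58.1, sva 3.50.0 with 1 surrogate variable, other size factors, filters and covariates, and leaving out each library. The study's own test program was not used here. Genes were named by rule: the 3 of smallest p in each gene list, the 10 of smallest p over all genes, and 3 for each further comparison. Not every gene the rule selects is reported here. *Id1*, *Slc1a4*, *Wwp2*, *Hspa2*, *Fzd1*, *Grk3*, *Rad21*, *Thbs3*, *Acot11*, *G6pdx*, *Idh3b*, *Vasn*, *H4c17*, *Mfap5*, *Htra1*, *Sfrp2*, *Fstl1*, *Acadvl*, *Bcl6* and *Socs2* were named because DESeq2 called them, after their values were seen. Scripts were tested on simulated data.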

Additional observations from a re-analysis of the deposited data

Results flagged for a closer look

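In 218 groups of 6 libraries, 6 had a library whose gap to its nearest neighbour, over the range, exceeded Dixon's 95% critical value of 0.625. Chance flags about 1 group in 20 where all 6 values come from 1 normal distribution. Each group here pooled 3 libraries of each stratum, so that rate need not hold, and outliers within a stratum can be missed. Hydralazine library 6 had 183 CPM of *Hspa1a*, with the next library at 88.9 CPM. Hydralazine library 5 had 20.0 CPM of *Smad7*, the lowest of its group, with the next at 30.4 CPM. Hydralazine library 1 had 27.5 CPM of the aggrecan gene *Acan*, the lowest of its group, with the next at 39.6 CPM, and its macrophage markers summed to 888 CPM, with the next at 754 CPM. Untreated library 2 had 27.9 CPM of *Ramp2*, with the next at 24.8 CPM. Untreated library 4 had 0.143 CPM of *Sult2a1* where the other 5 untreated libraries had none.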

How the results depend on the processing

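For 97 genes the adjusted log2 fold change was recomputed, and each kept its sign under the alternatives in which it was tested. Most of them were chosen for a small p or a call in these same libraries. Their constant sign was thus close to fixed by that choice and supports nothing. *Hamp2*, *Sult2a1*, *Bpifa1* and *Ccnb1* were too low for the stricter filter, and *H4c17* and *Gstm1* were not among the 97. Of 38 list medians, 16 changed sign in at least 1 of the alternatives run for them. In place of the 0 genes called by edgeR, the DESeq2 Wald test called 33 genes adjusted for stratum, 8 in the Col3a1-high stratum, 18 in the Col3a1-low stratum and 1 for the difference between strata, and a continuous *Col3a1* covariate gave 1 call, *Sult2a1*, which had no count in 8 of the 12 libraries and passed the expression filter through the treated Col3a1-high libraries alone, so that call supports nothing. Leaving out 1 library gave 0 to 1 calls in the Col3a1-high stratum (*Nuak1* without untreated library 2, *Gstm1* without untreated library 4) and 0 to 1 for the difference between strata (*Gstm1* without untreated library 4). For the adjusted effect, the Col3a1-low stratum and the genotype difference it gave 0 to 0. The DESeq2 count of 33 ranged from 3 to 94 when 1 library was left out, and was 7 with an adipocyte score, 70 with a hepatocyte score and 2 without the stratum; these alternatives were chosen after seeing the data. The cause was not tested. List medians were recomputed only with each library left out, with DESeq2 size factors, without the stratum and with each marker score. The remaining alternatives, the continuous *Col3a1* covariate among them, were not run for list medians. Over those that were run, the median was 0.11 to 0.23 for the elastic fibre and 0.24 to 0.35 for immediate early genes. It was -0.27 to -0.05 for oxidative phosphorylation and -0.79 to -0.12 for brown adipocyte markers. The ends at -0.05 and -0.12 came from the model with the adipocyte score, which is made from adipocyte markers. No paired analysis was possible because replicate numbers only name libraries in accession order and mark no shared animal, litter or day.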
